A study of Mus musculus with 12 samples.

Results

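Neural progenitor cells (NPC) heterozygous for Chd8 (genotype label CHD8_HET, here HET) were compared with wild-type (WT) NPC, with 2 libraries per genotype. These 4 libraries were chosen by their labels alone, out of 12 in the series. The other 8 hold KO NPC and WT, HET and KO embryonic stem cells (ESC), the ESC grown in 2i medium, with 2 libraries per group. They entered the same fits, and the ESC and KO values are given beside the NPC values. All NPC are mouse cells derived from ES cells, and all libraries were made from total RNA depleted of ribosomal RNA. The labels do not describe the alleles or the lines and clones behind each genotype, nor whether replicate libraries stem from separate cultures. All p-values therefore reflect differences among these replicate libraries, possibly technical ones.

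CHD8 is a chromatin remodeller of the CHD family, which uses ATP to move nucleosomes and is found at many active promoters. In people, loss-of-function mutations in a single copy of CHD8 are strongly associated with autism, and HET cells carry the dose nearest to that state. Neural progenitors are the dividing cells that give rise to neurons and glia. The deposited files list transcripts by UCSC-style identifiers without gene names, and 0 of the identifiers matched the gene tables used here. The genotype could therefore not be checked against Chd8, nor the cell type against progenitor or pluripotency markers, and no gene, pathway or sequence can be named. Transcripts are described by their identifier or by their row, counted from 1 in the 55419 rows that every file lists in the same order. What that order follows is not stated in the files.

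The 4 libraries were of similar depth within a genotype, but those of HET were shallower. Estimated counts totalled 12392099 and 13150215 in WT and 9945753 and 9731881 in HET. A count above 0 was recorded for 34668 and 34663 transcripts in WT and for 33976 and 33715 in HET. The most abundant transcript took 11.7% and 10.1% of the counts in WT and 16.6% and 12.6% in HET, so its share in the libraries of the 2 genotypes did not overlap. Its part in the results below was measured by leaving it out, which kept all 3 called transcripts. It also changed which transcripts reached the level for blocks, described below, so that 12 of 211 blocks were called, against 16 of 199.

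HET and WT libraries differed from each other only slightly more than replicates did. Over the 10440 transcripts with a mean of at least 10 counts scaled to library size (CPM), the median absolute log2 difference was 0.20 between the WT replicates and 0.22 between the HET replicates. The 4 pairings of a HET with a WT library gave 0.26, 0.30, 0.26 and 0.29. A difference of more than 2-fold was seen for 4.43% of these transcripts between the WT replicates and for 5.36% between the HET replicates. In the pairings across genotypes the share was 6.52% to 8.64%.

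Single transcripts were tested with edgeR's quasi-likelihood test over all 12 libraries, with p-values adjusted by Benjamini-Hochberg over the 30021 transcripts tested. At an adjusted p under 0.05, 3 transcripts were higher in HET NPC and 0 were lower (0.00999% and 0% of those tested). At an unadjusted p under 0.05 there were 2372 transcripts, or 7.9%, of which 1211 were higher (4.03%) and 1161 lower (3.87%). DESeq2 called 957 transcripts, 513 higher and 444 lower, and all 3 of edgeR's calls were among them.

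The 3 called transcripts lay within 27 rows of each other, at rows 11321, 11345 and 11347. The first, uc007pau.2, is 11416 bases long. Its level was 5.31 and 6.74 CPM in the WT NPC libraries and 50.9 and 37.2 CPM in the HET NPC libraries. Both HET libraries were far above both WT libraries. The log2 fold change was 2.87 with a standard error of 0.22 (edgeR adjusted p = 0.0223), a 7.29-fold higher level. Per length, the deposited values, on the TPM scale, were 0.895 and 1.09 TPM in WT and 7.45 and 6.05 TPM in HET.

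The second, uc011ysu.1 at row 11347, is 2644 bases long. It was at 8.18 and 5.94 CPM in WT and at 51.2 and 48.2 CPM in HET, again without overlap. Its log2 fold change was 2.81 with a standard error of 0.23 (edgeR adjusted p = 0.0223). On the TPM scale it rose from 6.29 and 4.41 to 34.0 and 35.7. The level of this transcript per length in HET was thus several times that of uc007pau.2, although their CPM were alike.

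The third called transcript, at row 11345, is 3476 bases long and was the rarest of them. It had 1.26 and 1.54 CPM in WT, from 18.4 and 22.9 estimated counts, and 10.3 and 9.32 CPM in HET. Its log2 fold change was 2.80 with a standard error of 0.25 (edgeR adjusted p = 0.0297). The row lies 2 rows from uc011ysu.1. Estimated counts share a read among all transcripts it is compatible with, so if these neighbouring rows overlap in sequence they need not be separate observations.

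The fold changes of the 3 changed little when 1 of the 4 libraries was left out, with log2 values of 2.58 to 3.05, but the calls did. Without WT replicate 1 or without WT replicate 2, edgeR called 0 transcripts (1838 and 1829 at an unadjusted p under 0.05), without HET replicate 1 it called 1 other transcript, and without HET replicate 2 it called 3, of which 1, uc007pau.2, was among the 3 (edgeR adjusted p = 0.0285). With the 4 libraries alone it called 0, with 2495 at an unadjusted p under 0.05.

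**Figure D1:**
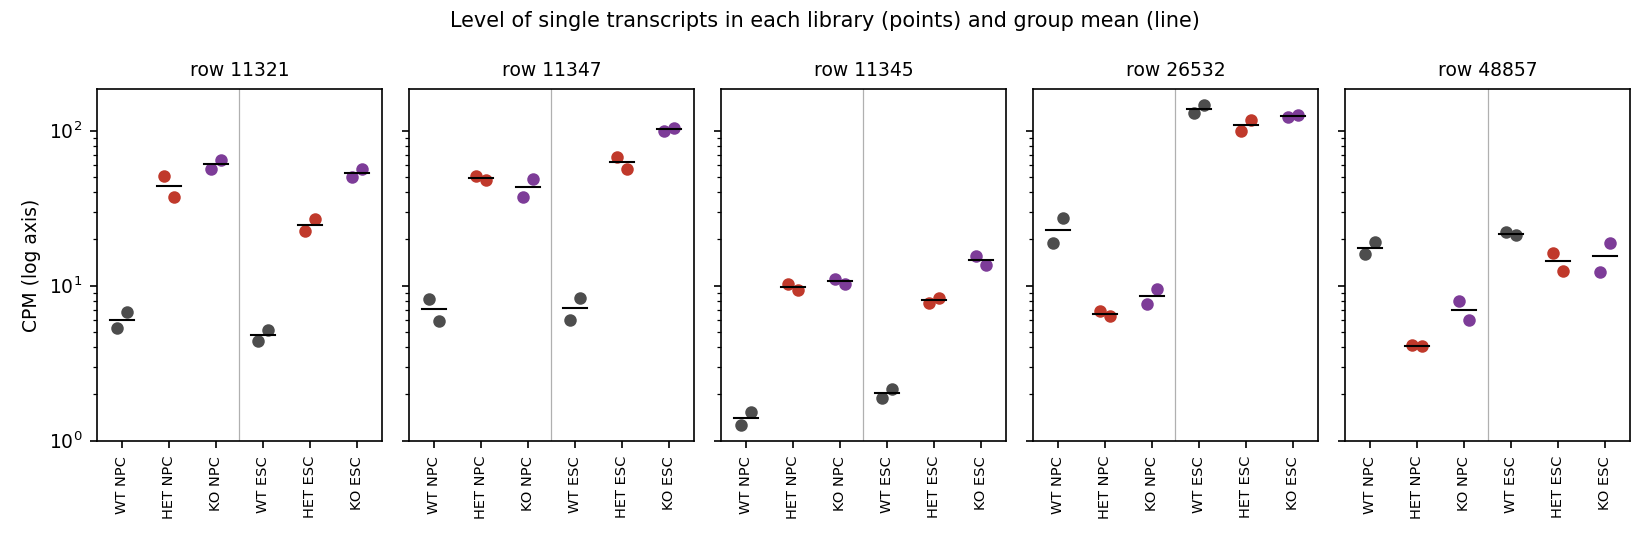
Level in CPM (log axis) of the 3 transcripts called higher in HET NPC (rows 11321, 11345 and 11347) and of the 2 named lower transcripts that did not pass the test (rows 26532 and 48857); each point is a library and each line a group mean. The HET NPC points of rows 11321, 11345 and 11347 lie above both WT points, and the KO NPC points of these rows (10.3 to 64.9 CPM) lie above both WT points too.

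In ESC, whose WT and HET libraries are not those of the NPC contrast, edgeR called 6 transcripts higher and 4 lower in HET (0.02% and 0.0133% of those tested). The level of uc007pau.2 was 4.39 and 5.17 CPM in WT ESC and 22.5 and 27.0 CPM in HET ESC, a log2 fold change of 2.37 (edgeR adjusted p = 0.0226). For uc011ysu.1 the levels were 6.05 and 8.27 CPM in WT ESC and 68.0 and 56.8 CPM in HET ESC, a log2 fold change of 3.12 (edgeR adjusted p = 0.0104). The transcript at row 11345 had 1.90 and 2.17 CPM in WT ESC and 7.73 and 8.38 CPM in HET ESC. Its log2 fold change of 1.98 did not pass in ESC (edgeR adjusted p = 0.0746). The difference between the NPC and the ESC effect did not pass the test for any of them (edgeR adjusted p for the interaction 0.99, 1 and 0.954 in the order given), and across all transcripts it passed for 0 as a larger and 1 as a smaller effect in NPC (0% and 0.00333%), with 5.22% at an unadjusted p under 0.05. In each cell type the HET values of all 3 were above the WT values.

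KO NPC had levels close to those of HET NPC. They were 56.7 and 64.9 CPM for uc007pau.2, 37.5 and 48.9 CPM for uc011ysu.1 and 11.1 and 10.3 CPM for row 11345. KO minus HET was 0.46 with a standard error of 0.20, -0.20 with 0.21 and 0.13 with 0.23 on the log2 scale, and none passed (edgeR adjusted p = 0.673, 0.941 and 1). A p that misses the threshold does not show that HET and KO act alike. Across all transcripts, 2 passed for KO against HET in NPC, both lower in KO, at rows 38770 and 55278 (0.00666% of those tested), and 0 as higher in KO. Both were chosen for description by that test. Row 38770 had 4.82 and 3.21 CPM in WT, 4.24 and 6.15 CPM in HET and 0 in both KO libraries, while row 55278 had 61.8 and 55.8 CPM in WT, 54.3 and 49.9 CPM in HET and 12.2 and 12.2 CPM in KO. At row 38770 the HET and WT values overlapped, and at row 55278 HET minus WT was -0.17 on the log2 scale (edgeR adjusted p = 0.927).

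No transcript passed as lower in HET. The 2 with the lowest p among those with at least 5 CPM and no overlap are given as values. One, uc008jdu.1 at row 26532, is 1631 bases long and had 18.9 and 27.2 CPM in WT against 6.87 and 6.33 CPM in HET. Its log2 fold change was -1.80 with a standard error of 0.20 (edgeR adjusted p = 0.0814). KO NPC were near HET, at 7.58 and 9.55 CPM. ESC held far more of it, with 130.1 and 146.5 CPM in WT, 100.1 and 117.0 CPM in HET and 121.9 and 125.6 CPM in KO, and there HET minus WT was -0.35 (edgeR adjusted p = 0.66).

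The other, uc009mpa.2 at row 48857, is 4853 bases long. It had 16.0 and 19.0 CPM in WT NPC and 4.14 and 4.07 CPM in HET NPC, a log2 fold change of -2.09 with a standard error of 0.28 (edgeR adjusted p = 0.161). KO NPC lay between, at 7.98 and 5.99 CPM. In ESC the levels were 22.3 and 21.1 CPM in WT and 16.3 and 12.4 CPM in HET (log2 fold change -0.59, edgeR adjusted p = 0.587).

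A pair of transcripts came close to the threshold in the higher direction and are given here after their values were seen. Row 26014 had 11.5 and 13.4 CPM in WT NPC and 33.7 and 35.6 CPM in HET NPC (log2 fold change 1.48, edgeR adjusted p = 0.0517). In ESC it was at 62.9 and 64.7 CPM in WT and at 55.5 and 59.8 CPM in HET, and the difference between the effects in NPC and ESC was 1.63 with a standard error of 0.20 (edgeR adjusted p = 0.138). Row 11588, a short way below the called transcripts in the files, had 42.6 and 38.9 CPM in WT and 87.9 and 91.3 CPM in HET (log2 fold change 1.14, edgeR adjusted p = 0.0538). Its ESC levels were 52.8 and 47.3 CPM in WT and 102.4 and 94.9 CPM in HET. Row 26014 was thus apart in opposite directions in the 2 cell types, but its ESC log2 fold change of -0.15 did not pass (edgeR adjusted p = 0.865). Row 11588 was apart in the same direction in both, with 0.98 in ESC, which did not pass either (edgeR adjusted p = 0.0678).

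The rows around the called transcripts also differed between HET and WT. Along the deposited order, the 19918 tested transcripts with a mean of at least 2 CPM over the 12 libraries were cut into 199 blocks of about 100 neighbours. Block 44 (rows 11263 to 11578) holds all 3 called transcripts. In the fit, 12 of its 100 members were at least 4-fold higher in HET, with log2 fold changes of 2.25 to 3.41, against 1.5% of all block members. They lay at rows 11316 to 11525, several of them in neighbouring rows, which may share reads. Of the 12, 9 had an unadjusted edgeR p under 0.05. The rest of the 12 were at 0.267 to 1.61 CPM in the WT NPC libraries. For the other 88 members the median log2 fold change was 0.71, with quartiles of 0.42 and 0.95, and 78 of them were above 0. Over all block members 48.3% were above 0.

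Runs of neighbouring blocks were then looked for across all rows. The value of a block in a library was first taken as its members' median log2 CPM, less the library's median over blocks, and was tested with limma over all blocks. By this median level 16 of 199 blocks passed at an adjusted p under 0.05 (8.04%), of which 10 were higher in HET (5.03%) and 6 lower (3.02%). In all, 10 of them formed 4 runs of at least 2 neighbouring blocks. The HET and WT values were apart in 88 blocks (44.2%), so that a lack of overlap alone marks no block out. The SD of the block shift, HET minus WT, was 0.18, against 0.16 for the difference between the WT replicates and 0.14 for that between the HET replicates. The shift is a difference of means over 2 libraries, and a replicate difference is between single libraries. By noise alone the shift would vary less, so these SDs are not like for like.

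The median level of a block moves with which of its members stand near the middle, and in 3 of the 16 called blocks (6, 54 and 105) the members' median log2 fold change was near 0, at -0.04, 0.02 and -0.05. A second block value was therefore added after these results had been seen. It is the members' median deviation, in each library, from the transcript's own mean over the 6 libraries of its cell type. By this median deviation 32 blocks passed (16.1%), of which 28 were higher (14.1%) and 4 lower (2.01%). They shared 13 blocks with the first count, and blocks 6, 54 and 105 were not among them. The block SD of HET minus WT was 0.15, while the SD between replicates fell to 0.08 in WT and 0.05 in HET, again for means against single libraries. The groups were apart in 112 blocks (56.3%).

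**Figure D2:**
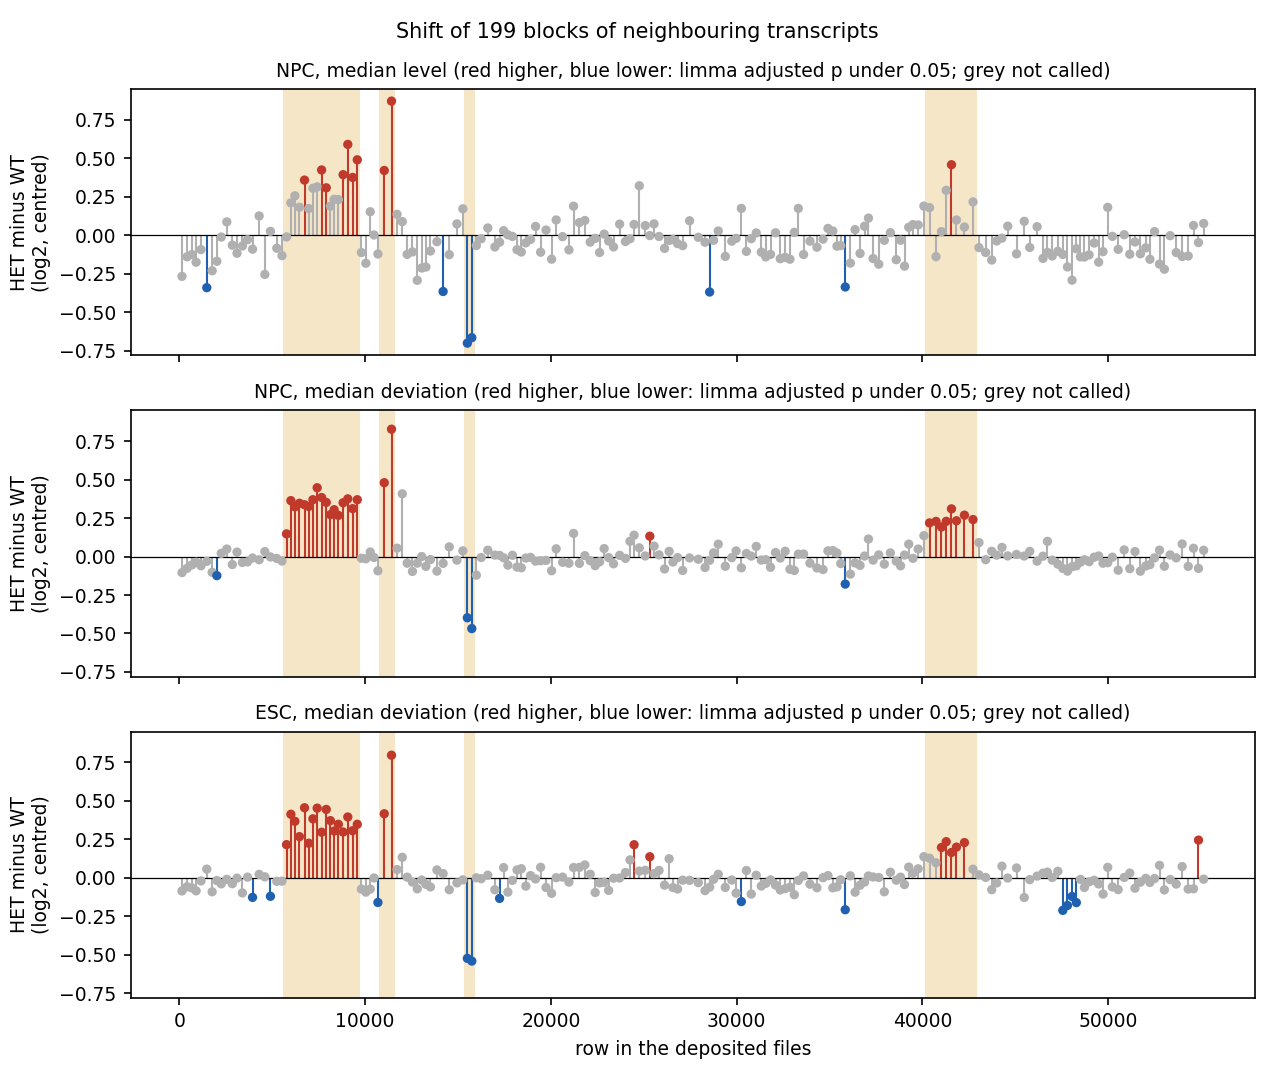
Shift of each of the 199 blocks, HET minus WT on the log2 scale, against its row in the deposited files, by median level in NPC (top), by median deviation in NPC (middle) and by median deviation in ESC (bottom); shaded spans are the 4 runs called by median deviation. Red points and blue points passed the limma test, with the span from row 15377 to 15854 below 0 in all 3 panels; in the span from row 40217 to 42875 all 8 blocks passed in the middle panel, 1 in the top panel and 5 in the bottom panel.

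By median deviation, 29 of the 32 called blocks fell into 4 runs. Of these runs, 3 were higher in HET, at rows 5649 to 9690 (blocks 21 to 37), 10798 to 11578 (blocks 43 and 44) and 40217 to 42875 (blocks 149 to 156), and 1 was lower, at rows 15377 to 15854 (blocks 58 and 59). The remaining called blocks were 94, higher by 0.13, and 8 and 132, lower by 0.12 and 0.18. Each run combined many differences that did not pass singly, apart from the 3 called transcripts of block 44. Differences in that block were larger, with 12 of its 100 members at least 4-fold higher. Of the 3200 members of called blocks, 586 had an unadjusted edgeR p under 0.05, against 1979 of all 19918 block members (9.94%), and 3 passed after adjustment. The blocks were called by the shifts of these same members, so counts of members describe the runs and do not test them again.

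The run from row 5649 to 9690 was the longest. Its 17 blocks shifted by 0.15 to 0.45 on the log2 scale, and the highest limma adjusted p among them was 0.0175. Averaged over its blocks, the median deviation was -0.17 and -0.16 in the WT libraries and 0.17 and 0.17 in the HET libraries. In each of the 17 blocks both HET libraries were above both WT libraries. Of single members, both HET libraries were above both WT libraries for 772 and below them for 143 of 1700, against 21.2% and 22.7% of all block members. Of its 1700 members, 1270 (74.7%) had a log2 fold change above 0, against 48.3% of all block members, and the run's median was 0.30, or 1.23-fold. The members' quartiles were -0.0022 and 0.58, so the run held many transcripts near 0 as well. By unadjusted edgeR p, 288 members were higher and 32 lower, against 5.06% and 4.88% of all block members. By median level 7 of the 17 blocks passed. In steps of 20 members, the first rows of block 21 were not raised. Their medians were -0.29 at rows 5649 to 5676 and -0.03 at rows 5677 to 5774, before 0.44 at rows 5782 to 5808.

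Median level called 3 stretches within this run, block 25, blocks 29 and 30 and blocks 34 to 37. The transcripts of lowest p in the latter 2, which are runs, are given as examples. In blocks 29 and 30 it was row 7613, with 49.6 and 48.1 CPM in WT and 72.3 and 75.9 CPM in HET. This is a log2 fold change of 0.60 with a standard error of 0.09, which did not pass (edgeR adjusted p = 0.161). In ESC it had 60.4 and 60.8 CPM in WT and 90.3 and 90.6 CPM in HET. In blocks 34 to 37 it was row 9279, with 30.6 and 30.6 CPM in WT and 73.8 and 65.8 CPM in HET (log2 fold change 1.19, edgeR adjusted p = 0.227). In ESC the 2 genotypes overlapped at row 9279, with 40.2 and 24.9 CPM in WT and 45.5 and 37.7 CPM in HET.

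The run at rows 10798 to 11578 had the widest shifts, 0.48 in block 43 and 0.83 in block 44 (highest limma adjusted p 4.3e-06). The median deviation of block 44 was -0.67 and -0.53 in WT and 0.18 and 0.28 in HET. Of the run's 200 members, 160 (80%) were above 0, with a median of 0.66, or 1.58-fold, and 76 had an unadjusted p under 0.05 in that direction. Among all block members the shares were 48.3% above 0 and 5.06% higher at that p. Steps of 20 members showed where the rise began and ended. The first 2 steps of block 43 were not part of it, with medians of -0.20 at rows 10798 to 10857 and -0.11 at rows 10860 to 11040, where 7 of 20 members were above 0. The next, rows 11041 to 11106, had 0.64 with 17 of 20. Medians then stayed between 0.51 and 0.99 up to row 11627, fell to 0.20 at rows 11631 to 11674 and were -0.05 at rows 11675 to 11734. In ESC the same steps gave -0.31 at rows 10860 to 11040, 0.74 at rows 11041 to 11106 and 0.21 at rows 11582 to 11627.

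The run at rows 15377 to 15854 was lower in HET. Its blocks shifted by -0.40 and -0.47 (highest limma adjusted p 4.3e-06). The median deviation of block 58 was 0.26 and 0.24 in WT and -0.14 and -0.16 in HET, and that of block 59 was 0.29 and 0.35 in WT and -0.17 and -0.13 in HET. Of its 200 members, 168 (84%) were below 0. The members' median log2 fold change was -0.50, that is 0.706 of the WT level, and 60 members had an unadjusted p under 0.05 in this direction against 6 in the other. Among all block members 48.3% were above 0, and 4.88% were lower and 5.06% higher at that p. The run's transcript of lowest p was at row 15461, with 89.2 and 114.2 CPM in WT and 49.6 and 52.0 CPM in HET (0.50 of the WT level in the fit, edgeR adjusted p = 0.161). The fall began inside block 58: its first step of 20 members, rows 15377 to 15425, had a median of -0.14, after 0.06 in the step before the block. The next, rows 15426 to 15475, had -0.65, and the medians stayed between -0.65 and -0.36 until row 15918, where the next step was -0.08.

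**Figure D3:**
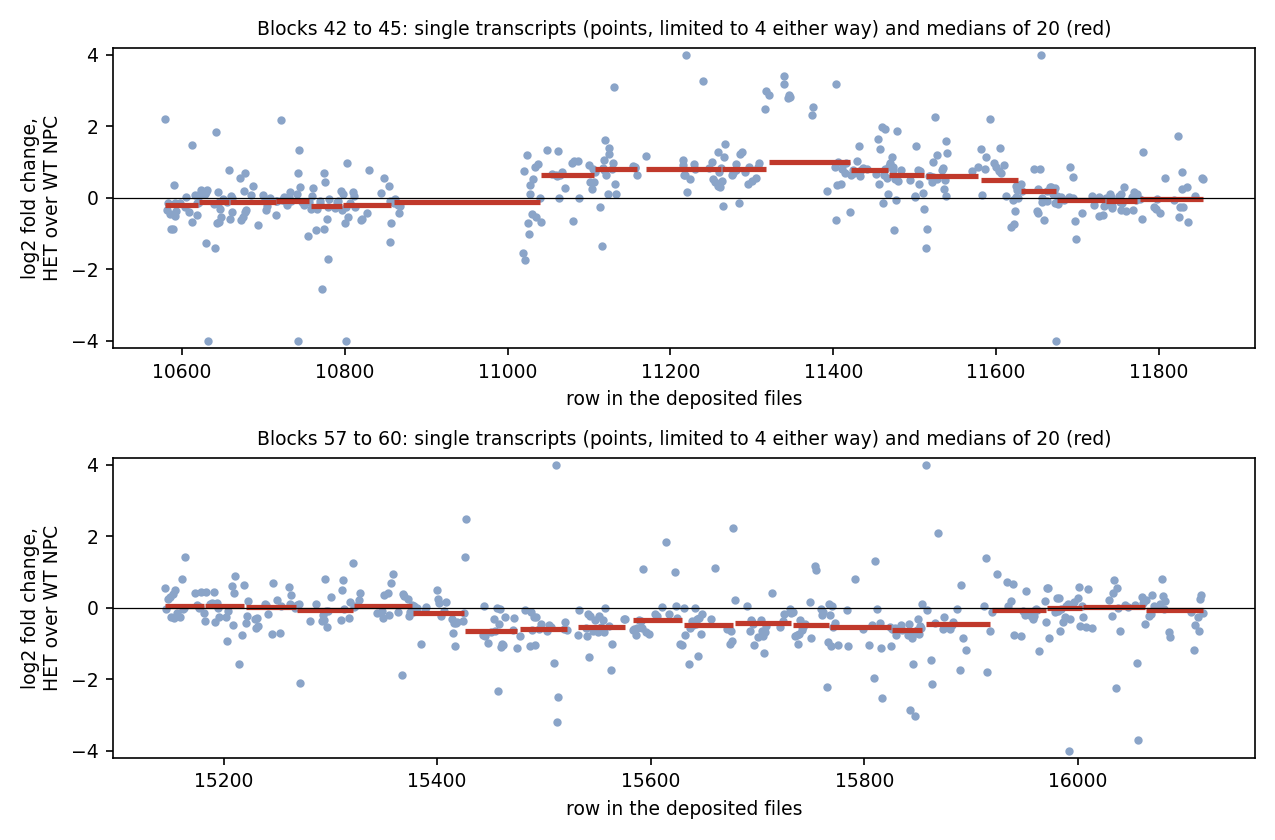
Log2 fold change of single transcripts, HET over WT NPC, by row, around the higher run of blocks 43 and 44 (top) and the lower run of blocks 58 and 59 (bottom); values beyond 4 are drawn at 4, and red bars are medians of 20 neighbouring block members. The medians step up to 0.64 at row 11041 and step down to -0.65 at row 15426, while single transcripts scatter on both sides.

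The run at rows 40217 to 42875 was the shallowest. Its 8 blocks shifted by 0.19 to 0.31 (highest limma adjusted p 0.0173), and 1 of them, block 153, passed by median level as well. In block 153 the median deviation was -0.01 and -0.12 in WT and 0.27 and 0.22 in HET. The run's 800 members had a median log2 fold change of 0.20, or 1.15-fold, and 555 of them (69.4%) were above 0, against 48.3% of all block members. Its edges were gradual, since block 148 just before it shifted by 0.14 (limma adjusted p = 0.218) and block 157 just after it by 0.09 (limma adjusted p = 0.235).

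**Figure D4:**
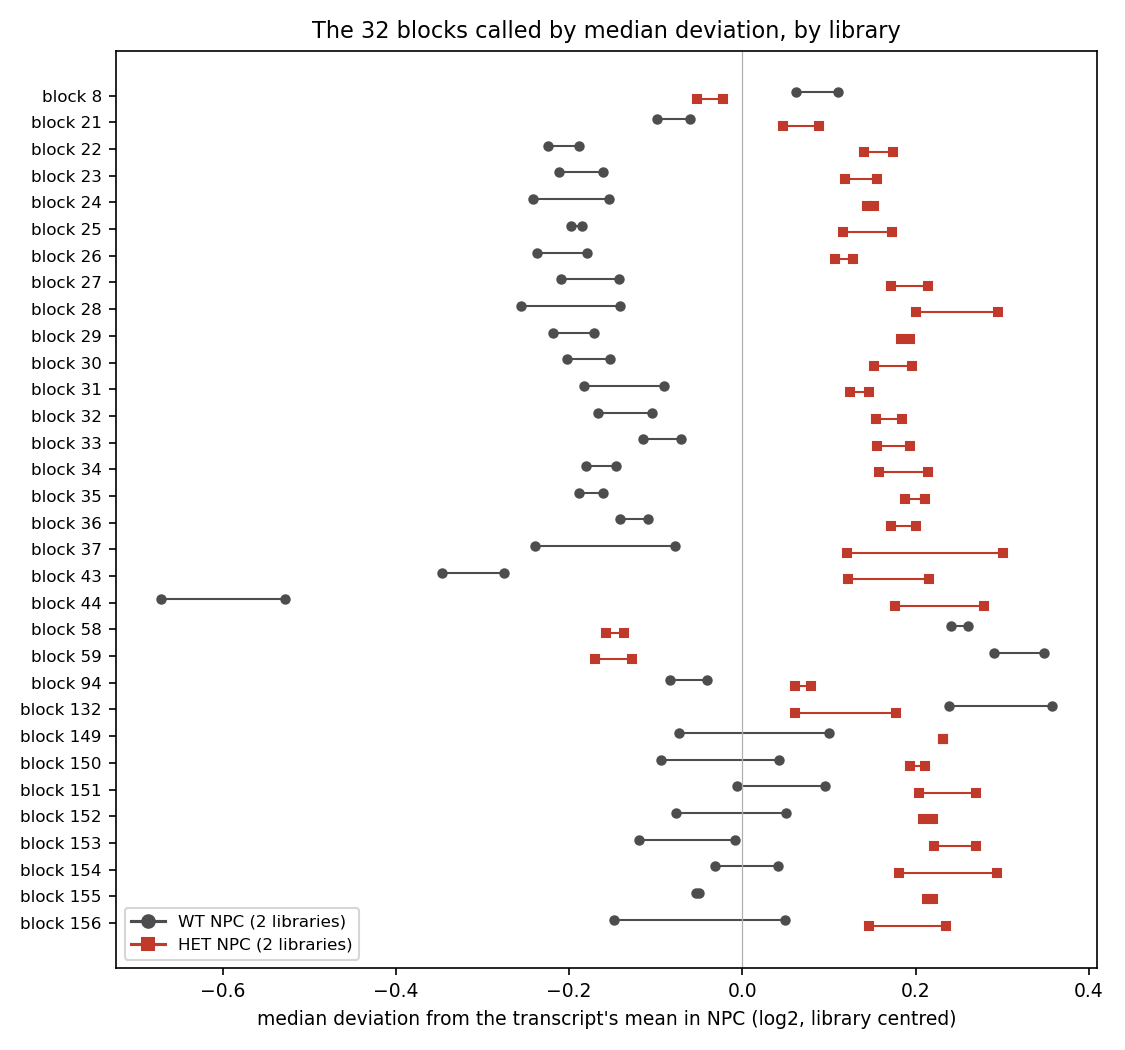
Median deviation from the transcript's own NPC mean (log2, centred on the library's median block) in the 2 WT and 2 HET NPC libraries, for the 32 blocks called by this value. The 2 HET libraries lie on 1 side of the 2 WT libraries in every block shown, as the choice of called blocks tends to give; the gap is widest in block 44, where WT lies at -0.67 and -0.53 and HET at 0.18 and 0.28.

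The calls by median deviation were then repeated with libraries left out. Without 1 of the 4 libraries in turn, 26 to 30 blocks passed, and 26 to 29 of them were among the 32. The runs at rows 10798 to 11578 and 15377 to 15854 had both blocks called each time, and the longest run had 16 or 17 of 17. The run at rows 40217 to 42875 had 4 of 8 blocks called without WT replicate 2 and 5 of 8 without HET replicate 1. Outside the runs, blocks 8 and 94 were called in none of these 4 fits, and block 132 was lost without WT replicate 1 and without HET replicate 2. In these fits the block members were kept as in the main fit. By median level they were chosen anew each time, giving 198 blocks in place of 199. The counts by median level, given in the closing part, are therefore not like for like with these.

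The WT and HET ESC libraries are not part of the NPC contrast, although all 12 libraries shared the estimate of spread and set which transcripts were block members. By median deviation, all 32 blocks called in NPC shifted the same way in ESC, and 28 of them passed there in the same direction, where 39 of all 199 blocks passed (19.6%). In the longest run all 17 blocks passed in ESC, with shifts of 0.22 to 0.46. Both blocks of the run at rows 10798 to 11578 passed, with 0.42 and 0.80, and both blocks at rows 15377 to 15854, with -0.52 and -0.54. At rows 40217 to 42875, 5 of 8 passed, with shifts of 0.06 to 0.23. The difference between the shift in NPC and in ESC passed for 0 blocks by either block value, with 12 at an unadjusted p under 0.05 by median level (6.03%). Over the 199 blocks the shifts in NPC and ESC had a Pearson r of 0.89 and a Spearman rho of 0.61. By median level they were 0.67 and 0.47. Blocks are not independent samples, and those of a cell type share its 4 libraries. The labels do not say whether the NPC and ESC of a genotype share a line. A difference between lines and one of genotype therefore cannot be told apart in either cell type.

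**Figure D5:**
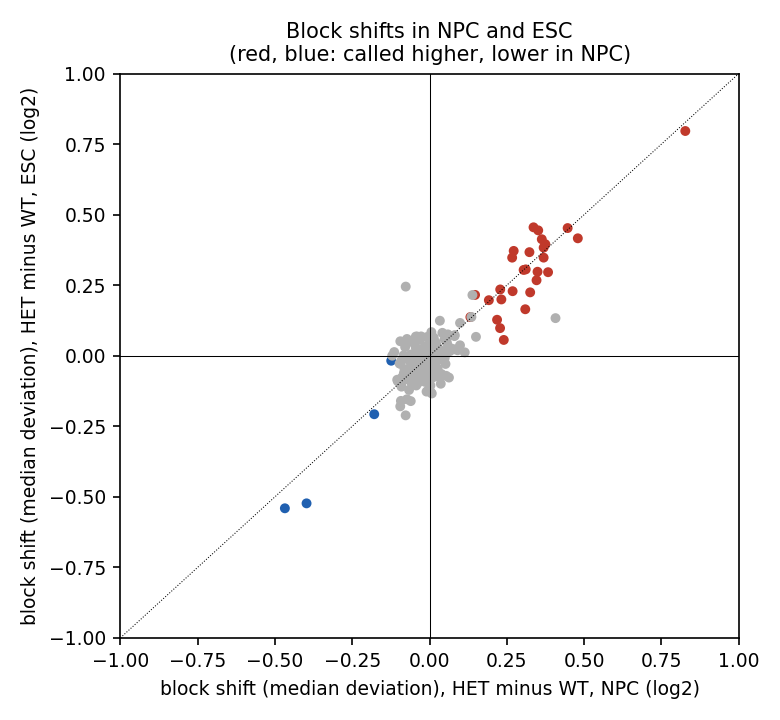
Shift of each of the 199 blocks by median deviation, HET minus WT on the log2 scale, in NPC (x axis) and in ESC (y axis); red and blue points were called higher and lower in NPC and the dotted line marks equal shifts. The called points follow the line from -0.47 in NPC and -0.54 in ESC to 0.83 in NPC and 0.80 in ESC, while the grey points cluster around 0.

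KO NPC share the WT libraries with the comparison above, so their shifts against WT are given side by side and the difference between KO and HET is tested. At rows 10798 to 11578 KO was higher than WT by 0.52 and 0.98, and at rows 15377 to 15854 it was lower by 0.40 and 0.46. By median deviation KO against HET did not pass in any of these 4 blocks (limma adjusted p = 0.0911 in block 44, 0.967 in block 58 and 0.918 in block 59). By median level it passed in block 44, where KO exceeded HET by 0.42 with a standard error of 0.12 (limma adjusted p = 0.0155). In the longest run KO exceeded WT by 0.02 to 0.30 where HET did so by 0.15 to 0.45, and KO was lower than HET in 12 of the 17 blocks at an adjusted p under 0.05. Over all blocks 41 passed for KO against HET (20.6%). At rows 40217 to 42875 the KO shift against WT was -0.33 to -0.11, opposite in sign to that of HET, and KO was lower than HET in all 8 blocks, by 0.37 to 0.52. By median level, where 3.02% of all blocks passed as higher in KO than HET and 9.05% as lower, KO was lower in 3 of the 17 blocks of the longest run and in 4 of the 8 at rows 40217 to 42875. Whether separate lines stand behind the genotypes cannot be told from the labels.

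The ESC values of the leading single transcripts were also read, inside and outside the blocks called by median level. Among transcripts with at least 5 CPM in NPC and no overlap, the 100 with the lowest p in the higher direction showed a median of 0.95 for the log2 fold change in NPC. In ESC 88 of them were higher in HET, with a median of 0.62. Of these 100, 40 lay in blocks called by median level, against 1147 of all 14202 transcripts at this level. When such blocks were left out, 81 of the top 100 were higher in ESC, with a median of 0.43. The 19 blocks called by median deviation alone stayed in, so these lists can still hold members of the runs described above. Of the 100 with the lowest p in the lower direction 77 were lower in ESC, with a median of -0.33, and 17 lay in blocks called by median level. Outside blocks called by median level 75 were lower, with a median of -0.24. For comparison, 7325 of all 14202 transcripts at this level were higher in HET ESC, with a median of 0.01. The NPC and ESC effects differed at an unadjusted edgeR p under 0.05 for 30 of the 100 higher and 56 of the 100 lower transcripts. Outside blocks called by median level it was 36 and 59, against 825 of all 14202. After adjustment 0 in these lists passed. The transcripts of each list were chosen by the NPC contrast, whose p also draws on the spread of the ESC libraries. That choice favours large NPC effects, and so differences from ESC.

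Some transcripts were at 0 in both libraries of a genotype and at 5 CPM or more in both of the other. There were 16 at 0 in WT and 24 at 0 in HET, and none passed edgeR's test after adjustment. Between replicates of a genotype such gaps were more numerous, but there only a single library has to be at 0. In WT 164 and 160 transcripts were at 0 in 1 replicate and at 5 CPM or more in the other, and in HET 219 and 210. For example, row 14299 had 18.5 and 27.8 CPM in WT and 0 in both HET libraries, at least 81.9-fold lower than in WT when the HET level is set to 3 counts per library. KO NPC had 6.58 and 12.9 CPM. Its neighbour at row 14300 was at 64.3 and 67.4 CPM in WT and 75.7 and 64.9 CPM in HET. Row 49140 had 0 in both WT libraries and 15.1 and 11.4 CPM in HET, at least 63.1-fold higher by the same limit, and 0 in both KO libraries. The next rows, 49138 and 49139, had 322 and 364 CPM and 235 and 251 CPM in WT, and 327 and 253 CPM and 198 and 241 CPM in HET. Rows 14300, 49138 and 49139 overlapped between the genotypes.

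Transcripts were also divided by length. The median log2 CPM of the tested transcripts, relative to that of all tested transcripts in the library, was higher in HET by 0.07 among the 144 of up to 300 bases and by 0.11 among the 2100 of 300 to 1000 bases. In the latter class the replicates differed by 0.06 in each genotype, and both HET libraries were above both WT libraries. It differed by 0.02 between 1000 and 3000 bases, by -0.04 between 3000 and 10000 bases and by -0.01 above that. Differences between replicates reached 0.10 in the shortest class, where the HET replicates differed, and 0.31 in the longest class, again between the HET replicates. The median length of members was 2901.5 bases in the longest run and 2848.5 at rows 10798 to 11578. It was 3357.5 at rows 15377 to 15854 and 2847.5 at rows 40217 to 42875.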

How the data were processed

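RNA of 12 mouse libraries (2 in each of 6 groups) was measured, and groups were taken from the genotype and cell type labels. The submitters' processing notes name Cutadapt 1.16, kallisto without a version, and the mouse build mm9. Per the file headers, the deposited files give estimated counts, which need not be whole, and TPM for 55419 transcripts. Counts were rounded. In all, 245 transcripts in 96 sets with values equal to 2 decimals in every library (at least 10 counts in all, in at least 2 libraries) were merged, leaving 55270 features. The filterByExpr filter used a minimum count of 10 and the scaling TMM, and models were fitted with edgeR 4.0.16 in R 4.3.3 (glmQLFit, robust) with 1 mean per group. There were 6 residual degrees of freedom, and the common dispersion of 0.35 equals a coefficient of variation of 0.592. The tests were two-sided with Benjamini-Hochberg adjustment at 0.05. Each standard error was obtained from the fold change and its F statistic. Blocks of log2 CPM (prior count 2) were tested with limma 3.58.1. With 2 against 2 libraries an exact permutation test cannot go below p = 0.333. Alternatives included DESeq2 1.42.0, limma on log2(TPM + 1) and limma-voom. The scripts were tested on simulated data.

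Named transcripts are those called, up to 2 identifiers per direction with at least 5 CPM and no overlap (by p where none passed), and the 1 of lowest p per run called by median level. The comparison, the blocks and the lists were chosen with earlier results of these data known. Gene lists and marker checks could not be run without gene names.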

Additional observations from a re-analysis of the deposited data

Results flagged for a closer look

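For 1 transcript the HET effect differed between NPC and ESC by a test of the difference itself. At uc009tkb.1 (row 54038, 1545 bases) the effect in NPC minus that in ESC was -5.05 on the log2 scale with a standard error of 0.37 (edgeR adjusted p = 0.0207). In NPC it had 82.7 and 83.8 CPM in WT and 86.6 and 121.0 CPM in HET, a log2 fold change of 0.32 (edgeR adjusted p = 0.789). In ESC it had 0.474 and 0.62 CPM in WT and 24.4 and 22.0 CPM in HET, a log2 fold change of 5.37 (edgeR adjusted p = 0.00263). The WT ESC values come from 3.79 and 6.03 estimated counts. At an unadjusted p under 0.05, 5.22% of the 30021 transcripts differed between the cell types. The call was lost without WT NPC replicate 1, without WT NPC replicate 2 and without HET NPC replicate 1.

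The transcript at row 26014 (4928 bases) was higher in both HET libraries in NPC and lower in both in ESC. The ESC log2 fold change was only -0.15 and did not pass (edgeR adjusted p = 0.865). The difference between the 2 effects was 1.63 on the log2 scale and did not pass the test (edgeR adjusted p = 0.138).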

How the results depend on the processing

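For transcripts changed in HET against WT NPC, edgeR called 3. It called 0 with the 6 NPC libraries (2675 at an unadjusted p under 0.05) or the 4 WT and HET NPC libraries (2495), 5 with RLE size factors and 7 at a mean CPM of at least 10. Leaving out 1 library gave 0 to 3. DESeq2 called 957, limma on log2(TPM + 1) 36 and limma-voom 8. The cause of these differences was not tested. In NPC, the deviations of same-numbered WT and HET libraries correlated at r = -0.01 over 10440 transcripts, so no pairing by replicate number was seen there. This value covers WT and HET NPC only, and it would miss a batch that affects few transcripts. With a replicate block 0 transcripts were called (2310 at an unadjusted p under 0.05), 0 for the interaction and 0 for KO against HET.

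For the interaction of the HET effect and cell type, 1 transcript was called. Leaving out 1 library gave 0 to 1, DESeq2 264, limma on log2(TPM + 1) 2 and limma-voom 0. For KO against HET in NPC 2 were called. Leaving out 1 library gave 0 to 1, the 6 NPC libraries 0, a mean CPM of at least 10 gave 1, DESeq2 729, limma on log2(TPM + 1) 4 and limma-voom 0.

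Of blocks by median level 16 of 199 were called. When libraries were left out, block members were chosen anew for median level but kept fixed for median deviation. Leaving out 1 library gave 7 to 15, 200 transcripts a block 7 of 99, summed counts 40 and median deviation 32. By median deviation, leaving out 1 library gave 26 to 30. No log2 fold change of a named transcript and no mean shift of the 4 runs by median level changed sign. However, blocks 29 and 30 had 0 called without WT replicate 1 (mean shift 0.36) and at 50 transcripts a block (0.26). At 200 transcripts a block, blocks 58 and 59 fell into different larger blocks. The 1 larger block counted for them was not called and shifted by -0.11, against a mean of -0.68 in the main fit. It joins block 58 to block 57, whose steps of 20 members had medians of -0.06 to 0.06. The value of -0.11 is therefore not the shift of this run, and that setting cannot test it. The difference between the block shifts in NPC and ESC, called for 0 blocks by median level, was called for 2 of 199 with summed counts. It was called for 2 of 104 with block members of a mean CPM of at least 10. With that limit set for all tested transcripts it was called for 1 of 104. Sums per gene and the gene lists were not run, because no identifier matched a gene. Depth limits the rarer transcripts: row 11345 had 18.4 and 22.9 estimated counts in WT.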
